A study of Mus musculus with 6 samples.

Results

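The genes examined were those of the cytosolic ribosomal proteins, the protein parts of the ribosomes that translate messages of the nuclear genome. Members were the protein-coding genes of the GENCODE annotation of NCBIM37 whose symbol begins with Rpl or Rps and a digit, together with Rpsa, Rplp0, Rplp1 and Rplp2, and without the S6 kinases and pseudogene symbols. The rule gave 85 of 22380 protein-coding genes, of which 51 carried a large subunit symbol and 34 a small subunit symbol. Of the members, 8 were set apart as paralogs or binding proteins, namely Rpl3l, Rpl7l1, Rpl10l, Rpl22l1, Rpl36al, Rpl39l, Rps27l and Rps19bp1, the last of which encodes a partner of a ribosomal protein and not a part of the ribosome. Rps4y2, whose symbol marks it as a copy related to Rps4x, was kept with the rest.

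RBPJ was mapped by ChIP-seq in F9 cells, a murine embryonal carcinoma line, with a polyclonal antibody raised in rabbits against RBPJ. The asynchronous population was labelled as 95% interphase and 5% mitotic cells, and the mitotic population had been arrested with nocodazole, a microtubule poison, and washed off the dishes. No genetic change is named for either population. The study sequenced 6 libraries, that is 2 immunoprecipitations and 1 input for each population, but only the peaks of replicate 1 of either population are described here, in 2 lists. There were therefore no replicates, and no difference between the populations was tested. Every interval of a share is an exact Clopper-Pearson 95% interval that covers counting error only. Intervals of read counts are Poisson intervals, and those of median distances are given in bp. No interval covers differences between replicates. A gene was counted as having a peak when a peak centre lay within 2 kb of any of its annotated transcript starts, in mm9 coordinates. Each peak carries the score of the authors' peak caller, used here only to rank peaks within 1 list.

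Each ribosome joins a small subunit, which reads the messenger RNA, to a large subunit, which forms peptide bonds, and nearly every protein of either subunit comes from a single active gene among many silent processed copies. The genes are transcribed at high rates in growing cells, usually from short promoters, and many carry small nucleolar RNA genes in their introns. RBPJ is the DNA-binding protein through which Notch receptors act on their target genes, and without Notch it can sit at the same sites with repressors.

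Of the 85 members, 24 had an asynchronous peak at a start, which is 28.2% (19.0 to 39.0), beside 10.2% of the 22295 other protein-coding genes. A mitotic peak was found at 13 members or 15.3% (8.40 to 24.7), beside 4.92% of the other genes. In all, 30 members or 35.3% (25.2 to 46.4) had a peak in either list, beside 13.3%. Peaks of both lists were found at 7 members, among them Rpl5, Rpl26, Rpl36a, Rps2 and Rps19, which is 8.24% (3.38 to 16.2) beside 1.82%. The share of members was thus 2.76 times that of the other genes in the asynchronous list, 3.11 times in the mitotic list, and 4.52 times for peaks of both lists. Among genes with a CpG-rich promoter these ratios were 1.75, 2.25 and 3.17, and with a limit of 500 bp they were 3.81, 4.92 and 7.81. The mitotic list was shorter, so each share is read only against the other genes of the same list.

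**Figure D1:**
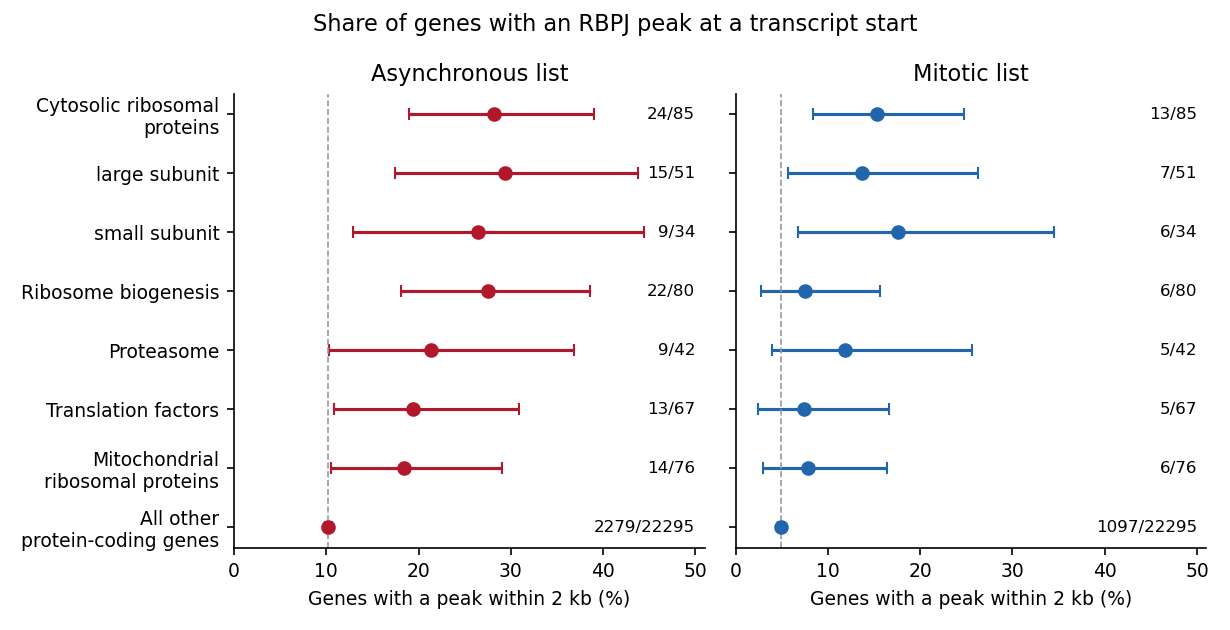
Share of genes with an RBPJ peak centre within 2 kb of a transcript start (horizontal axis, percent) for the asynchronous list (left) and the mitotic list (right), by gene list. Points are shares, bars are exact 95% intervals, the dashed line is the share of all other protein-coding genes (10.2% and 4.92%), and the numbers give genes with a peak over genes in the list; the cytosolic ribosomal protein genes lie at 28.2% and 15.3%.

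The subunits had similar shares. Among large subunit symbols, 15 of 51 genes had an asynchronous peak (29.4%, 17.5 to 43.8) and 7 had a mitotic peak (13.7%, 5.70 to 26.3). Among small subunit symbols, 9 of 34 had an asynchronous peak (26.5%, 12.9 to 44.4) and 6 a mitotic peak (17.6%, 6.76 to 34.5). The intervals of the subunits overlapped in both lists. Of the 8 set apart as paralogs and binding proteins, Rpl22l1 had an asynchronous peak and Rpl7l1 a mitotic peak.

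**Figure D2:**
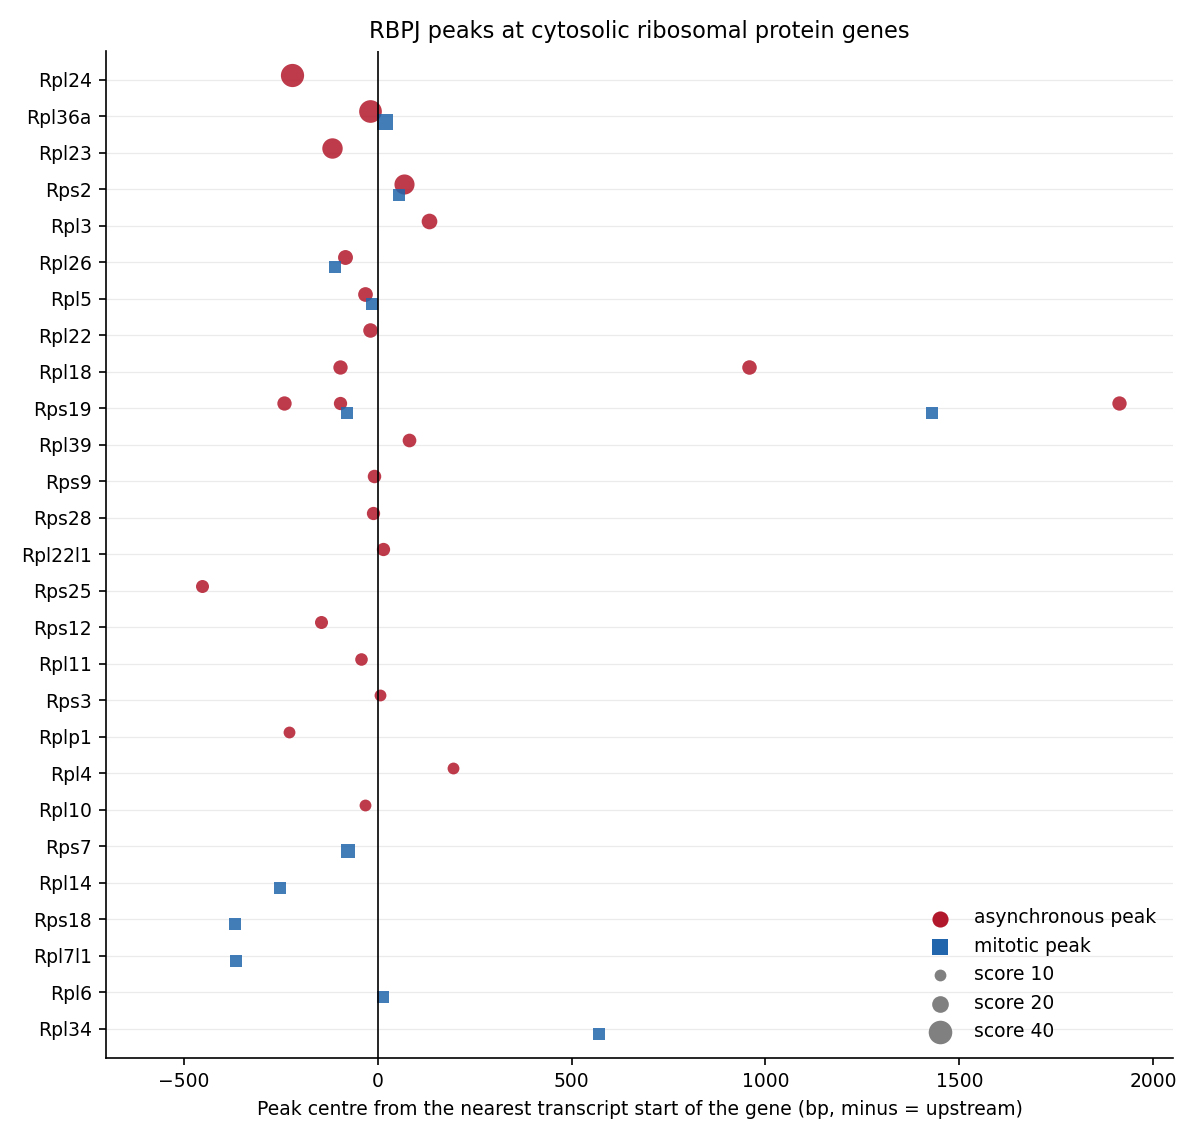
Peak centres within 2 kb of a start of 27 ribosomal protein genes, placed by its distance in bp from the nearest transcript start of that gene (horizontal axis, minus is upstream), with 1 line per gene, ordered by the highest asynchronous score and then by the mitotic score. Circles are asynchronous and squares mitotic peaks, and their area follows the score within each list; most centres lie within 500 bp of a start, and the exceptions are at Rpl18, Rpl34 and Rps19.

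The highest asynchronous score at a member belonged to Rpl24, whose protein helps to bridge the subunits. Its peak at chr16:55973609-55973781 scored 38.8, rank 12 of the 5206 peaks of the list, and was centred at -222 bp from the nearest start, inside an intron of a longer annotated transcript. The mitotic peak nearest to any start of Rpl24 was 1257613 bp from it. Rpl36a, a large subunit gene on the X chromosome, followed with a score of 37.1 (rank 14), and Rpl23, also of the large subunit, with 30.0 (rank 41) at chr11:97643782-97643954, centred at -117 bp. No mitotic peak lay closer to a start of Rpl23 than 19491 bp. Rps2, which lines the path of the messenger RNA into the small subunit, came next with 29.1 (rank 50).

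Each of these 4 peaks held the RBPJ consensus TTCCCAC(A/G), looked for in the mm9 bases of each peak in either orientation, and so did 4 peaks of lower score at Rpl18, Rpl22l1, Rpl39 and Rplp1. The 8 sites are shown because they are the members' full consensus matches, each as 30 bases read 5′ to 3′ on the strand that carries the match, with the consensus in capitals. In the order shown they lie in mm9 at chr16:55973691-55973720 (minus strand), chrX:131120148-131120177 (plus), chr11:97643828-97643857 (minus), chr17:24857107-24857136 (minus), chr7:52976444-52976473 (minus), chrX:34625279-34625308 (minus), chr3:28704425-28704454 (plus) and chr9:61762587-61762616 (plus).
Rpl24: ctccctttcctTTCCCACGctctctgtaaa
Rpl36a: atggtcgccgtTTCCCACGgctctgaggaa
Rpl23: taagcgcagctTTCCCACGcagaacggtcc
Rps2: atgtccacggaTTCCCACGgcccaggccgc
Rpl18: ggcctcacctgTTCCCACGccttgccccac
Rpl39: accggtttgggTTCCCACGgccccatggga
Rpl22l1: agcccgttctcTTCCCACGgctgcagctca
Rplp1: tgacaggcgcgTTCCCACGgcttgggtaca

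All 8 sites ended in G. Over the 27 asynchronous peaks at members, 8 held TTCCCACG (29.6%, 13.8 to 50.2) and 0 held TTCCCACA, whereas the 2099 asynchronous peaks at other protein-coding genes held each spelling equally often, in 95 peaks or 4.53%. The split by last base was looked at after the sites had been seen. Counted together, the consensus was in 29.6% of the member peaks and in 186 or 8.86% (7.68 to 10.2) of the other peaks. The shorter core TTCCCA was in 48.1% (28.7 to 68.1) of the member peaks and 33.3% (31.2 to 35.3) of the other peaks, so the ratio fell from 3.34 to 1.45 and the intervals overlapped. In windows of the same width 2 kb to either side the full consensus was found in 2 of 54 at members (3.70%) and in 1.57% at other genes.

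A site inside a peak of this width can lie at most 82.5 bp from the centre, and the median was 23.5 bp for the 8 sites, beside 25.5 bp in the 186 other peaks. The middle of the consensus was 2.5 bp from the asynchronous centre at Rps2, 10.5 bp at Rpl24 and Rpl36a, and 68.5 bp at Rpl22l1, the farthest of the 8. It ran in the direction of transcription at Rpl22l1, Rpl23, Rpl36a and Rpl39 and against it at Rpl18, Rpl24, Rplp1 and Rps2. Relative to the start, the site lay upstream at Rplp1 (-256.5 bp), Rpl24 (-211.5 bp), Rpl23 (-91.5 bp) and Rpl36a (-30.5 bp), and downstream at Rps2 (66.5 bp), Rpl22l1 (81.5 bp), Rpl39 (103.5 bp) and Rpl18 (933.5 bp). Neither strand nor side of the start was shared by all 8.

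Of the 13 member peaks among the highest scoring 26.5% of the asynchronous list, a cut at 25% that takes in ties, 5 held the consensus (38.5%, 13.9 to 68.4), and of the 14 below it 3 did (21.4%, 4.66 to 50.8). At other genes the shares were 15.6% (12.7 to 18.9) and 6.42% (5.25 to 7.76). The intervals for the members are wide and overlap, so a change of the motif share with score could not be told from counting error for these genes. On either side of the cut the member interval also held the share at other genes, 15.6% above it and 6.42% below it.

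Among the 7 members with peaks of both lists, the pair at Rps2 nearly coincided. The asynchronous peak at chr17:24857038-24857210 lay wholly within the mitotic peak at chr17:24857010-24857212 (score 11.6, rank 662 of 3227), the overlap being 173 bp and the shift of the mitotic centre -13 bp. Both were in an untranslated exon, centred at 69 and 56 bp from a start, and both held the consensus site shown above. Starts of Snhg9, Snora78 and Snora64, noncoding RNA genes of this locus, also lay within 2 kb.

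At Rpl36a the asynchronous peak (chrX:131120087-131120259, centre -20 bp) and the mitotic peak (chrX:131120157-131120359) overlapped by 103 bp. The mitotic centre was 85 bp farther along the gene, in a coding exon, which put the consensus 95.5 bp from it and 10.5 bp from the asynchronous centre. These peaks lie in a chrX region where the paper reports a shift between the populations, examined there by quantitative PCR of immunoprecipitated DNA. The mitotic score of 18.2 had rank 45 in its list, the highest rank of any mitotic peak at a member.

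Rpl5, which carries the 5S ribosomal RNA into the large subunit, had an asynchronous peak at chr5:108329401-108329573 (score 15.6, rank 740, centre -34 bp). The mitotic peak at chr5:108329406-108329608 overlapped it by 168 bp, with a score of 10.2, the lowest of the mitotic list. At Rpl26, which lies near the exit of the peptide tunnel, the peaks were chr11:68714914-68715086 (score 16.0, rank 645) and chr11:68714874-68715076 (score 11.6), with an overlap of 163 bp and centres at -85 and -110 bp. Neither gene had a full RBPJ consensus or the shorter TTCCCA in these peaks. Instead the end of the asynchronous Rpl26 peak held the ETS core CCGGAAG, and the mitotic Rpl5 peak held the NRF1 letters GCGCATGCG, both shown with the matches in capitals, at chr11:68715060-68715089 (plus) and chr5:108329557-108329586 (plus).
Rpl26: caacttacagaaCCGGAAGtcgcgtgtagt
Rpl5: tgctacatactGCGCATGCGtacgtgactc

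Rps19, a small subunit gene whose human counterpart is often mutated in Diamond-Blackfan anaemia, had 5 peaks, the most of any member. Asynchronous peaks lay at chr7:25669062-25669234 (score 14.8, centre -242 bp), chr7:25669468-25669640 (score 12.7, centre -98 bp) and, past the end of the gene, chr7:25675584-25675756 (score 14.8, centre 1911 bp from an internal start). Mitotic peaks lay at chr7:25669472-25669674 and, also past the end, at chr7:25675088-25675290, both with the lowest score of 10.2. Only the pair near the start overlapped, by 169 bp, with centres 19 bp apart, while 293 bases separated the downstream peaks. The downstream asynchronous peak was the only member peak with a match to the core of the CTCF gel-shift fragment, with 1 mismatch, at chr7:25675638-25675667 (plus). The overlapping pair held the YY1 letters AANATGGC at chr7:25669529-25669558 (minus), and the matches are in capitals.
Rps19 downstream: actcttcggCCACTAGGTGGCagctgctag
Rps19 start: ttctgagggcgAATATGGCttcatctccac

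**Figure D3:**
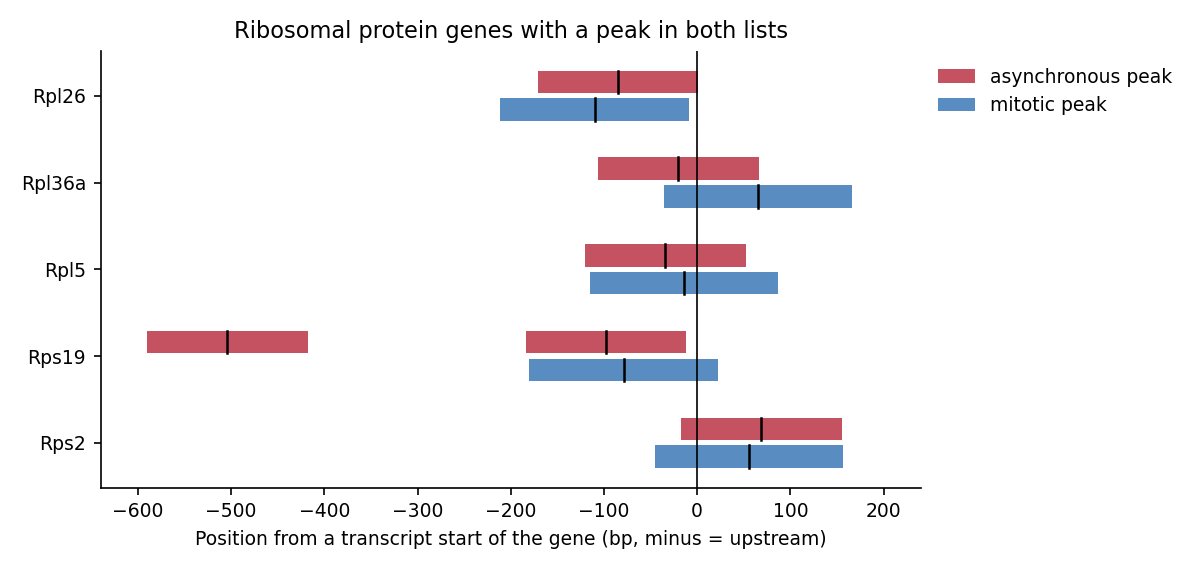
Peak intervals at 5 ribosomal protein genes with a peak in both lists, in bp from 1 transcript start of each gene (horizontal axis, minus is upstream), with asynchronous intervals above mitotic ones. Bars span the whole peak, black ticks mark centres, the peaks past the end of Rps19 are left out, and its upstream peak, at -242 bp from another start, is drawn from the same start as the pair; a pair of bars overlaps at each of the 5 genes.

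Over these genes the mitotic centre lay on no fixed side of the asynchronous one. In genome coordinates the shift was 85 bp at Rpl36a, 20 bp at Rpl5 and 19 bp at Rps19, and -13 bp at Rps2 and -25 bp at Rpl26. Of the 27 asynchronous peaks at members, 6 overlapped a mitotic peak (22.2%, 8.62 to 42.3), beside 10.1% of the asynchronous peaks at other genes. Read from the mitotic side, it was 6 of 14 (42.9%, 17.7 to 71.1) beside 20.9%. By gene, 7 of 24 members with an asynchronous peak also had a mitotic peak (29.2%, 12.6 to 51.1), beside 17.8% of the other genes. Of 13 members with a mitotic peak, 7 also had an asynchronous one (53.8%, 25.1 to 80.8), beside 37.0%. Each of these intervals, by peak and by gene, held the share of the other genes.

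The large subunit genes with an asynchronous peak alone were 12. Rpl3, part of the region around the peptidyl transferase centre, had the highest score of these after Rpl24 and Rpl23, at chr15:79913617-79913789 (score 17.7, rank 403), in an intron 133 bp past the start, and no mitotic peak lay closer to its start than 50640 bp. Rpl22 scored 15.2 with its centre at -21 bp, and its paralog Rpl22l1 scored 12.7 at 13 bp, so that both genes of this pair had an asynchronous and no mitotic peak. Rpl39, a small protein of the peptide tunnel, scored 13.5 at 81 bp in an untranslated exon.

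Rpl11, the partner of Rpl5 on the 5S ribosomal RNA, scored 11.4 with its centre at -43 bp. Weaker peaks lay at genes of varied roles. Rpl10, which joins the large subunit late in its assembly, Rpl4, which lines the peptide tunnel, and Rplp1, of the stalk that recruits elongation factors, each had the lowest asynchronous score of 10.1. Their centres lay at -33, 193 and -230 bp.

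Rpl18 had 2 asynchronous peaks, and neither was nearest to a start of Rpl18. The peak at chr7:52973259-52973431 (score 14.8) was centred at -96 bp from a start of Rpl18 and 27 bp from one of Sphk2, a sphingosine kinase gene. The peak that held the consensus, chr7:52976397-52976569 (score 15.2), lay past the end of Rpl18 and 99 bp from a start of Fam83e. The peaks cannot be assigned to Rpl18 in place of these neighbours.

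Small subunit genes with an asynchronous peak alone were Rps3, Rps9, Rps12, Rps25 and Rps28. Rps9 scored 13.1 at -10 bp, and Rps12 scored 12.2 at -145 bp. Rps3, near the entry of the messenger RNA channel, had the lowest score of 10.1 at 6 bp. Rps25 and Rps28 have a neighbour's start close by. The Rps28 peak (score 12.7) was centred at -12 bp from Rps28 and 17 bp from a start of Ndufa7, a subunit gene of respiratory complex I, and the Rps25 peak (score 12.2) was 453 bp from Rps25 but 71 bp from Trappc4.

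A mitotic peak alone was found at Rpl6, Rpl7l1, Rpl14, Rpl34, Rps7 and Rps18. Rps7 had the highest score of these, 12.4 (rank 433), at chr12:29320794-29320996, centred at -77 bp. Rpl14 scored 10.9 at -253 bp. Rpl6 (13 bp), Rpl7l1 (-366 bp), Rps18 (-369 bp) and Rpl34 (570 bp, in an intron) had the lowest score of the mitotic list, 10.2. The Rps18 peak was also within 2 kb of Vps52, at 455 bp.

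Of these genes none held the full RBPJ consensus in the mitotic peak. TTCCCA was in the peaks of Rpl6, Rpl34 and Rps7, and the ETS core in those of Rpl6 and Rps7. Rpl6 also held the ZNF143 motif ACTACANNTCCC, which shares letters with TTCCCA. The ZNF143 match at Rpl6 and the ETS match at Rps7 are shown in capitals, at chr5:121654444-121654473 (plus) and chr12:29320814-29320843 (plus).
Rpl6: taaagaaaaACTACATTTCCCatgatgccc
Rps7: ggtgggtggaaaCCGGAAGctcttctgaaa
Over all 14 mitotic peaks at members, the RBPJ consensus was in those of Rpl36a and Rps2 (14.3%, 1.78 to 42.8), beside 4.91% of 998 mitotic peaks at other genes. The ETS core was in 3 (21.4%, 4.66 to 50.8) beside 6.11%, whereas in the asynchronous list it was in 1 of 27 (3.70%, 0.0937 to 19.0) beside 9.62%. In the mitotic peaks at members a CTCF match was in 0, which leaves room for up to 23.2%, beside 5.61%.

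Some member peaks stood at the limit of the lists, and the absence of a peak from 1 list is no measure of absent binding. If the score counts reads per 10 M reads, the lowest score stands for 24 reads in the asynchronous list (Poisson 95% interval 15.4 to 35.7) and 14 reads in the mitotic list (7.65 to 23.5). In the asynchronous list 4 peaks at members, those of Rpl4, Rpl10, Rplp1 and Rps3, had that lowest score, 14.8% of the 27, beside 14.1% at other genes. In the mitotic list the lowest score was that of 7 of the 14 peaks, at Rpl5, Rpl6, Rpl7l1, Rpl34, Rps18 and, with 2 peaks, Rps19, beside 35.9% of the mitotic peaks at other genes. Within 20% of the lowest score lay 25.9% of the asynchronous member peaks, beside 54.2%, and 71.4% of the mitotic ones, beside 75.2%.

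The asynchronous peaks at members had a median score of 13.5, beside 11.8 for those at other genes. Of the 27, 13 were among the highest scoring 26.5% of the whole list (48.1%, 28.7 to 68.1), beside 26.5% of the peaks at other genes. Mitotic peaks at members had a median score of 10.55, beside 10.9, and 7 of the 14 (interval 23.0% to 77.0%) were at or above the median of the list, beside 64.1%. With ties, the same cut took in 34.0% of the mitotic list, which held 42.9% of the member peaks (17.7 to 71.1) and 41.0% of the others. By score the members' asynchronous peaks thus lay above those of other genes, whereas in the mitotic list the median was lower and the intervals for 14 peaks held the shares of the other genes.

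**Figure D4:**
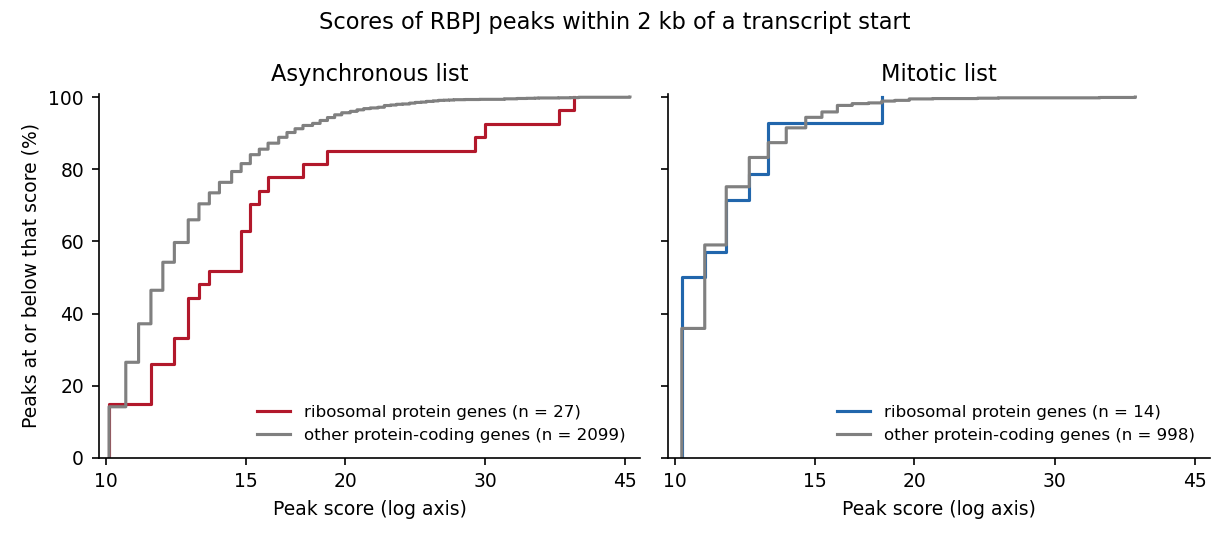
Cumulative share of peaks within 2 kb of a start (vertical axis, percent) at or below each score (horizontal log axis) for the asynchronous list (left) and the mitotic list (right). Coloured lines are peaks at ribosomal protein genes and grey lines peaks at other protein-coding genes; the medians are 13.5 and 11.8 on the left and 10.55 and 10.9 on the right, and scores of the panels are not comparable with each other.

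Most peaks at ribosomal protein genes were centred close to the start. In the asynchronous list 14 of 27 centres were within 100 bp (51.9%, 31.9 to 71.3) and 25 within 500 bp (92.6%, 75.7 to 99.1), beside 34.6% and 71.0% at other genes. In the mitotic list the shares were 42.9% (17.7 to 71.1) and 85.7% (57.2 to 98.2), beside 16.8% and 58.7%. The median signed distance was -34 bp (-145 to 6) in the asynchronous list, beside -51 bp at other genes, and -78 bp (-253 to 56) in the mitotic list, beside -56 bp. The intervals for the members held the share of the other genes at 100 bp in the asynchronous list and at 500 bp in the mitotic list, and lay above it at 500 bp in the asynchronous list and at 100 bp in the mitotic list. Distances are from the nearest of all annotated starts, and 31 of 85 members had 6 or more starts, beside 3859 of 22295 other genes. The part of this in the shares was not tested. From the gene's 5′ end only, the asynchronous median was -33.5 bp, beside -55.5 bp.

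**Figure D5:**
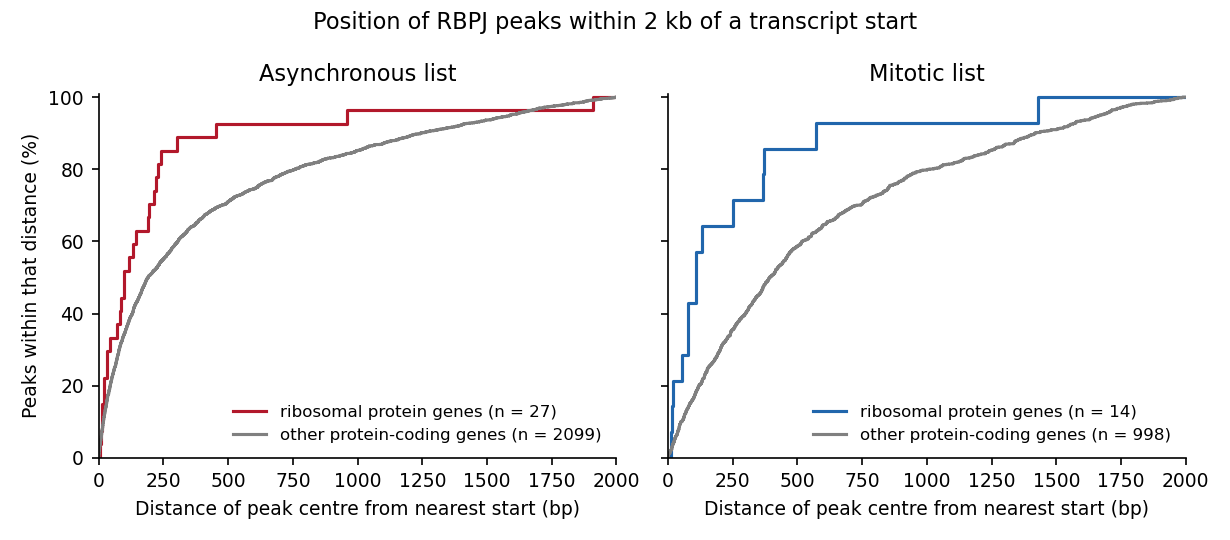
Cumulative share of peaks (vertical axis, percent) whose centre lies within a given distance in bp of the nearest transcript start (horizontal axis), among peaks within 2 kb of a start, for the asynchronous list (left) and the mitotic list (right). Coloured lines are ribosomal protein genes and grey lines other protein-coding genes; at 500 bp the members reach 92.6% and 85.7% and the other genes 71.0% and 58.7%.

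By annotation, 15 of the asynchronous centres at members were upstream of the gene, 7 in an untranslated exon, 3 in an intron (Rpl3, Rpl4 and Rpl24) and 2 beyond the gene (Rpl18 and Rps19). Of the mitotic centres, 8 were upstream, 3 in an untranslated exon, and 1 each in a coding exon (Rpl36a), an intron (Rpl34) and beyond the gene (Rps19). Another protein-coding start lay within 2 kb of 5 asynchronous peaks and 1 mitotic peak, those named above at Rpl4, Rpl18, Rps25, Rps28 and Rps18, where at Rpl4 the neighbour was Zwilch, 476 bp away. A start of the member itself was the nearest coding start at 24 of 27 asynchronous and all 14 mitotic peaks.

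The members nearest the 2 kb limit on the inside were Rpl34 (570 bp), Rps25 (453 bp) and Rps18 (369 bp), and on the outside Rpl13a (2268 bp), Rpl35 (2318 bp) and Rpl23a (2403 bp). No member had its nearest peak between 570 and 2268 bp, while a limit of 5 kb would take the members with a peak in either list from 30 to 36.

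The 55 members without a peak in either list and the 30 with one had promoters of similar base composition. A CpG-rich promoter, from 250 bp upstream to 50 bp downstream of the gene's 5′ end, was found at 73.3% of members with a peak and 74.5% of those without, and the median GC content was 56.0% and 55.3%. This window follows the outermost annotated 5′ end. At some members, such as Rpl18 and Rpl24, that end is not the start of the gene nearest the peak, so the window does not describe the bases there. Members as a whole were more often CpG-rich than other genes, 74.1% (63.5 to 83.0) beside 41.8%. Among CpG-rich promoters alone, 27.0% of members (16.6 to 39.7) had an asynchronous peak beside 15.4% of other genes, and 17.5% (9.05 to 29.1) had a mitotic peak beside 7.76%. The lower ends of these intervals lie close to the shares of the other genes.

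In the same promoter window the RBPJ consensus was in 3 members, Rpl3l, Rpl23 and Rpl36a (3.53%, 0.734 to 9.97), beside 2.40% of all other promoters, and Rpl3l had no peak. The Rpl24 site, at -211.5 bp from the start nearest its peak, is outside this window and is not counted. TTCCCA was in 12 of 30 members with a peak (40.0%, 22.7 to 59.4) and 13 of 55 without (23.6%, 13.2 to 37.0), beside 24.3% of other promoters. The ETS core was the motif with the largest share among the rest, in 24 members (28.2%, 19.0 to 39.0) beside 10.7%, and was as frequent with a peak (30.0%) as without (27.3%). The letters of YY1 were in 11.8% of members beside 6.54%, at 6 of 30 with a peak (interval 7.71% to 38.6%) and 4 of 55 without (2.02% to 17.6%). Those of ZNF143 were in 7.06% beside 2.44%, those of Sp1 (GGGGCGGGG) in 9.41% beside 14.8%, those of NRF1 in 1.18% beside 2.10% and those of CTCF in 4.71% beside 3.97%, the CTCF matches being at 0 of 30 members with a peak and 4 of 55 without. At other genes with a peak, TTCCCA was in 27.5% of promoters and the ETS core in 18.0%. The YY1 letters were in 9.50% of these promoters and a CTCF match in 5.46%. All such matches describe letters in a window, and no binding of these factors was measured here.

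Genes that hold small nucleolar RNAs had a peak about as often as the others. Of 30 members with such a gene inside, 12 had a peak in either list (40.0%, 22.7 to 59.4), and of the 55 without, 18 had one (32.7%, 20.7 to 46.7). More annotated starts mean a wider region searched, and among other genes the share rose with their number. Among members the intervals of the 3 groups overlapped, so no trend could be told from counting error. Peaks were found at 9 of 23 members with 1 start (39.1%, 19.7 to 61.5, beside 8.19% of other genes with 1 start), at 6 of 31 with 2 to 5 starts (19.4%, 7.45 to 37.5, beside 14.6%) and at 15 of 31 with 6 or more (48.4%, 30.2 to 66.9, beside 23.5%).

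Other genes of protein synthesis and turnover were counted in the same way. Of 80 genes for ribosome biogenesis, 22 had an asynchronous peak (27.5%, 18.1 to 38.6) and 6 a mitotic one (7.50%, 2.80 to 15.6), and 1 gene had both. Mitochondrial ribosomal proteins, which serve the separate ribosomes of that organelle, had an asynchronous peak at 14 of 76 genes (18.4%, 10.5 to 29.0) and a mitotic peak at 6 (7.89%). Translation factors stood at 19.4% and 7.46% of 67 genes, and proteasome subunits at 21.4% and 11.9% of 42. The intervals of all 4 lists overlapped those of the cytosolic ribosomal proteins in both lists of peaks. Of ribosomal proteins that the symbol rule leaves out, Gnb2l1, the scaffold protein of the small subunit also called RACK1, had asynchronous peaks at -10 bp (score 15.2) and 1613 bp (score 11.4), and Fau had none.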

How the data were processed

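Asynchronous and mitotic F9 cells were immunoprecipitated with anti-RBPJ antibody, and the peak list of the first immunoprecipitation of each was analysed. The second immunoprecipitations and the inputs were not used here. The authors aligned reads to mm9 with Bowtie 0.12.7, called peaks with HOMER (version not given in the sources used here) against input, and deposited each peak with a score. Its unit is not stated, and no score was compared between lists.

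Transcript starts came from GENCODE for NCBIM37, the build of mm9. Peaks were assigned to genes and motifs searched on both strands with Python 3.11.15, numpy 2.4.6 and pysam 0.24.0, intervals computed with scipy 1.17.1, and plots drawn with matplotlib 3.10.9. A rank is 1 plus the number of peaks with a higher score. A CTCF match allowed up to 2 mismatches in 12 bases. A CpG-rich promoter had at least 0.6 observed over expected CpG and 50% GC. The functions were checked on simulated data. Every member with a peak is named, those with peaks in both lists and the 8 highest asynchronous scores in full, and the 3 members on either side of the distance limit. Some genes that this rule names are not reported here, though they are in the counts. The proteasome list holds 42 gene entries of 40 symbols. Members and gene lists were chosen with earlier results of these data known, so no test was made. Alternatives changed the distance, score minimum, starts, members, chromosomes, peak assignment, motif spelling and window, and overlap rule.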

Additional observations from a re-analysis of the deposited data

How the results depend on the processing

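Of 53 values recomputed for the members under other settings, 50 stayed within the 95% interval of the value reported, though the shares of the other genes moved too. With peaks at or above the median score of their list, the share of members with a mitotic peak was 8.24% (other genes 3.22%) and with a peak in either list 23.5% (7.93%), since fewer peaks were counted. Among asynchronous peaks within 500 bp of a start, the share with a CTCF match was 0 of 25, or 0% (other genes 3.83%), because the match, at Rps19, lies farther from a start. The ratio of members to other genes was above 1 under all 10 settings for each list, and ran from 1.75 to 3.81 for asynchronous peaks, 2.25 to 4.92 for mitotic peaks, 1.73 to 3.70 for either list and 3.17 to 7.81 for both, lowest among CpG-rich promoters (other genes 15.4%, 7.76%, 20.2% and 3.00%) and highest at 500 bp (7.41%, 2.87%, 9.22% and 1.05%). For the RBPJ consensus it ran from 1.45 with TTCCCA (other peaks 33.3%) to 3.69, and for overlap with a mitotic peak from 1.92 to 2.78. For CTCF it ran from 0 to 2.29, the latter with up to 1 mismatch, and so changed side. No paired analysis was possible because each population has 1 list here and no result comes from a test; for the same reason no replicate could be left out. The number of peaks at members, 27 and 14, sets the width of the intervals, and peaks below the lowest score of a list are not seen.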

Other observations

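The annotation holds 155 symbols with -ps after an Rpl or Rps symbol, the processed copies that the member rule leaves out. None of them had an asynchronous peak within 2 kb of a start and 1 had a mitotic peak. No share over other pseudogenes is given beside these counts, so they are not read as low or high. These copies were counted after the values of the members had been seen. The authors kept only uniquely aligned reads, and the part of this in the counts was not tested.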
